A study of Sus scrofa with 8 samples.

Results

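THY1, also called CD90, was followed on 8 arrays of pig oviduct epithelium kept in primary culture for up to 30 days. The gene was found by the symbol THY1 in the platform annotation, which names 1 probe set (15330683, Entrez gene 100271931) of 27558 on the array and 1 gene of 10901 that could be named. It was chosen by its own RMA values on these same arrays, for the size of its change after 24h, so its own levels are given as a description and no test is attached to them.

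The cells came from the oviducts of landrace crossbred gilts about 9 months old, with 45 gilts in the study. Epithelium was cut away with blades, dispersed with collagenase and then trypsin, pooled, and grown in DMEM with fetal bovine serum, which is the condition that all groups share. The groups differ only in time: 24h, 7 days, 15 days and 30 days of culture, each with 2 arrays that the labels call biological replicates. Nothing says whether the arrays of a time hold separate pools of cells, so the p-values reflect just the variation among these 8 samples and part or all of it may be technical. Expression is a log2 value per probe set made by RMA, which corrects background, normalizes the arrays to each other and combines the probes of a set.

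THY1 encodes a small glycoprotein of the immunoglobulin superfamily that is held at the outer face of the membrane by a glycosylphosphatidylinositol (GPI) anchor, a lipid attached to the protein after its synthesis. It is a standard surface marker of fibroblasts and mesenchymal stromal cells, and is also carried by thymocytes, neurons, pericytes and activated endothelium, while epithelial cells generally lack it. Integrins and syndecan-4 on neighbouring cells bind it, and from lipid rafts it influences Src family kinases and the adhesion of fibroblasts to their matrix.

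THY1 was low at 24h and high at every later time. The RMA values were 4.03 and 3.73 at 24h, 9.09 and 9.21 at 7 days, 8.90 and 8.92 at 15 days, and 9.04 and 8.65 at 30 days. The arrays of the later times all lay far above both 24h arrays, and the closest pair of arrays, 1 from 24h and 1 from 30 days, was 4.62 log2 units apart. At 24h the value was below the median of all probe sets on those arrays (4.75 and 4.77) and above their lower quartile (3.49 and 3.48). No detection calls were used, so whether the gene was expressed at all at 24h cannot be read from these values.

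The means were 3.88 ± 0.21 at 24h, 9.15 ± 0.086 at 7 days, 8.91 ± 0.021 at 15 days and 8.85 ± 0.27 at 30 days (SD, n = 2). From highest to lowest the order was 7, 15 and 30 days and then 24h. Between neighbours in that order, 7 and 15 days did not overlap and differed by 0.24 log2 units. The 15-day and 30-day arrays did overlap, with a difference of means of 0.065 in size that turned sign when the lower 30-day array was left out. The 30-day arrays were the widest apart of the 4 times, and their higher array lay just under the lower 7-day array.

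**Figure D1:**
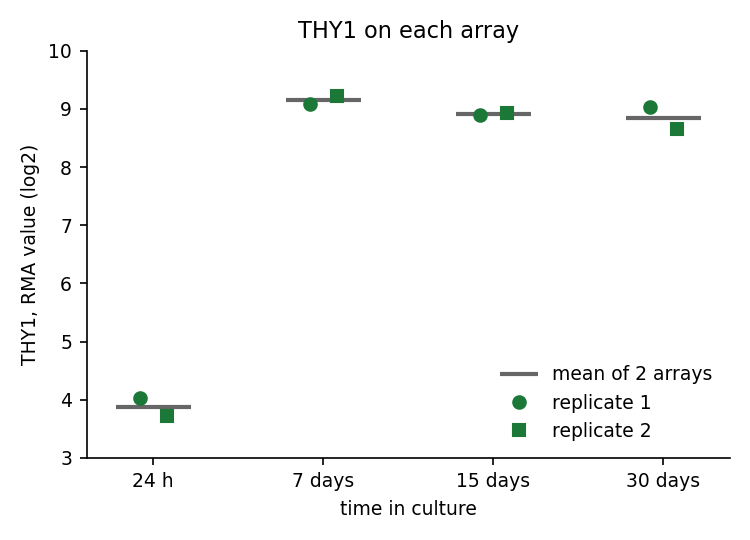
RMA value of THY1 (log2, vertical axis) on each of the 8 arrays by time in culture, with circles for replicate 1, squares for replicate 2 and a bar at the mean of the 2 arrays. The 24h arrays sit at 3.73 and 4.03, and the 6 later arrays between 8.65 and 9.21.

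Against 24h, the log2 difference of THY1 was 5.28 at 7 days, 5.03 at 15 days and 4.97 at 30 days, which correspond to 38.8-fold, 32.7-fold and 31.3-fold. No other probe set of the 27558, named or not, gained more between 24h and 7 days. By the same ranking its difference stood at place 10 of all probe sets at 15 days and at place 25 at 30 days. Its rank slid while its own value stayed nearly level. These 3 comparisons share the 24h arrays. In a bulk culture, more cells that carry a transcript and more of it per cell cannot be told apart.

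The early and then level course of THY1 can be set beside that of all genes that gained. For 366 genes, THY1 among them, the mean at some later time exceeded that at 24h by at least 2 log2 units. Of these, 52 were highest at 7 days, as THY1 was, 78 at 15 days and 236 at 30 days. The median gene of these had reached 64.1% of its largest rise by 7 days. THY1 had its whole rise by then, and held 95.4% of it at 15 days and 94.2% at 30 days. Of the 366 genes, 85 had at least 90% of their rise at 7 days.

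**Figure D2:**
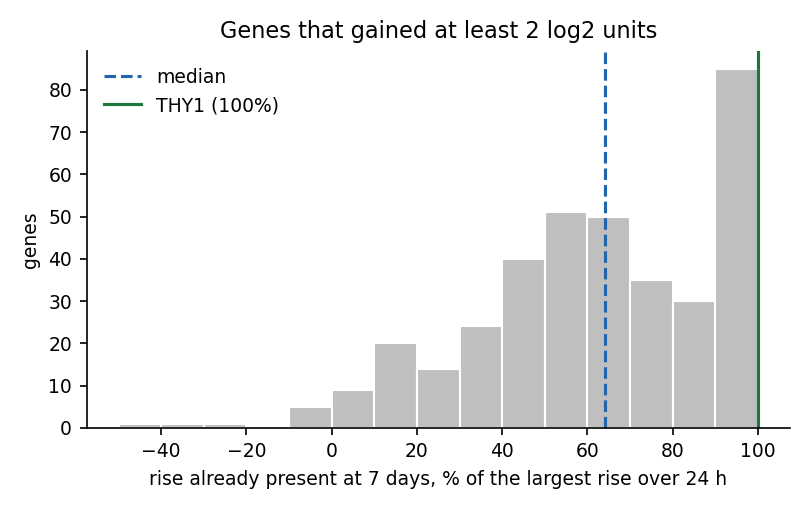
Histogram of the 366 genes that gained at least 2 log2 units over 24h, by the share of the largest rise already present at 7 days (horizontal axis, percent; negative where the gene was below its 24h mean at 7 days). The dashed line marks the median, 64.1%, and the green line marks THY1, whose largest rise was that at 7 days.

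Some matrix genes had less of their rise at 7 days than THY1 did, and the values of 5 are given as a description. COL1A1 and COL1A2, the chains of type I collagen, had 73.0% and 66.7% of their largest rise at 7 days. FBN1, which encodes fibrillin of microfibrils, had 31.5%, LUM, the proteoglycan lumican, had 39.2%, and COL3A1, the chain of type III collagen, had 10.0%. COL1A1, with RMA values of 8.10 and 7.93 at 24h, stood at 10.84 and 11.23 at 7 days and went on to 12.12 and 12.16 at 15 days, a further rise of 1.10 ± 0.14 (SE, limma adjusted p = 7.54e-04). All 5 of these genes had their highest mean at 30 days. For COL1A1 and COL1A2 the step from 15 to 30 days, 0.013 ± 0.14 and 0.12 ± 0.13, was not called (limma adjusted p = 0.978 and 0.673). LOX, the enzyme that crosslinks collagen, had 87.7% of its rise at 7 days, and COL6A3, a chain of type VI collagen, spanned only 0.31 log2 units over the time means.

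To find genes with the same shape, Pearson's r with THY1 was taken over the 8 arrays for the 652 genes, without placeholder symbols, whose time means spanned at least 2 log2 units. The points share 4 times of culture and the same libraries, and a low 24h value followed by a plateau is enough for a high r. The 10 highest were BST1 (r = 0.997), CDKN2B (0.997), ITGB3 (0.995), EPHX2 (0.994), CCNG1 (0.991), FADS3 (0.989), MYL9 (0.988), RARB (0.987), HEBP1 (0.987) and NPR1 (0.987). The next gene, STEAP2, had nearly the same r as NPR1, and 21 genes had r above 0.98, so the list has no natural end. When the second 24h array was left out, 5 of the 10 stayed among the 10 highest.

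BST1, or CD157, is an ectoenzyme that like THY1 is anchored by GPI and is known from bone marrow stroma. Its RMA values were 4.42 and 4.11 at 24h, 8.14 and 7.92 at 7 days, 7.88 and 7.85 at 15 days and 7.76 and 7.52 at 30 days. As with THY1, the mean was highest at 7 days and lower at each later time, and the 24h arrays were far below the rest. The steps of BST1 after 7 days, -0.16 ± 0.15 and -0.23 ± 0.15, were not called (SE, limma adjusted p = 0.595 and 0.427). The order of its later means is therefore not established. CDKN2B, the cell cycle inhibitor p15, went from 4.54 and 4.61 at 24h to 7.13 and 7.14 at 7 days, and was at 6.90 and 6.91 at 30 days. ITGB3, the beta3 integrin subunit, went from 5.35 and 5.55 to 9.17 and 9.06 at 7 days and was at 9.00 and 8.80 at 30 days.

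The other 7 of the 10 cover varied roles. EPHX2 is the soluble epoxide hydrolase, CCNG1 is cyclin G1, FADS3 belongs to the fatty acid desaturases and MYL9 is a myosin light chain of contractile cells. RARB is a retinoic acid receptor, HEBP1 binds heme and NPR1 is a natriuretic peptide receptor. The differences of these 10 genes at 7 days ran from 1.87 for CCNG1 to 3.76 for BST1. By the size of the profile as well as its shape, measured as the root mean square difference of centred log2 values over 8 arrays, the nearest genes were LIPG (0.43), LOX (0.47), BST1 (0.66), ITGB3 (0.67) and VLDLR (0.71). LIPG is a lipase, LOX crosslinks collagen and VLDLR is a lipoprotein receptor.

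**Figure D3:**
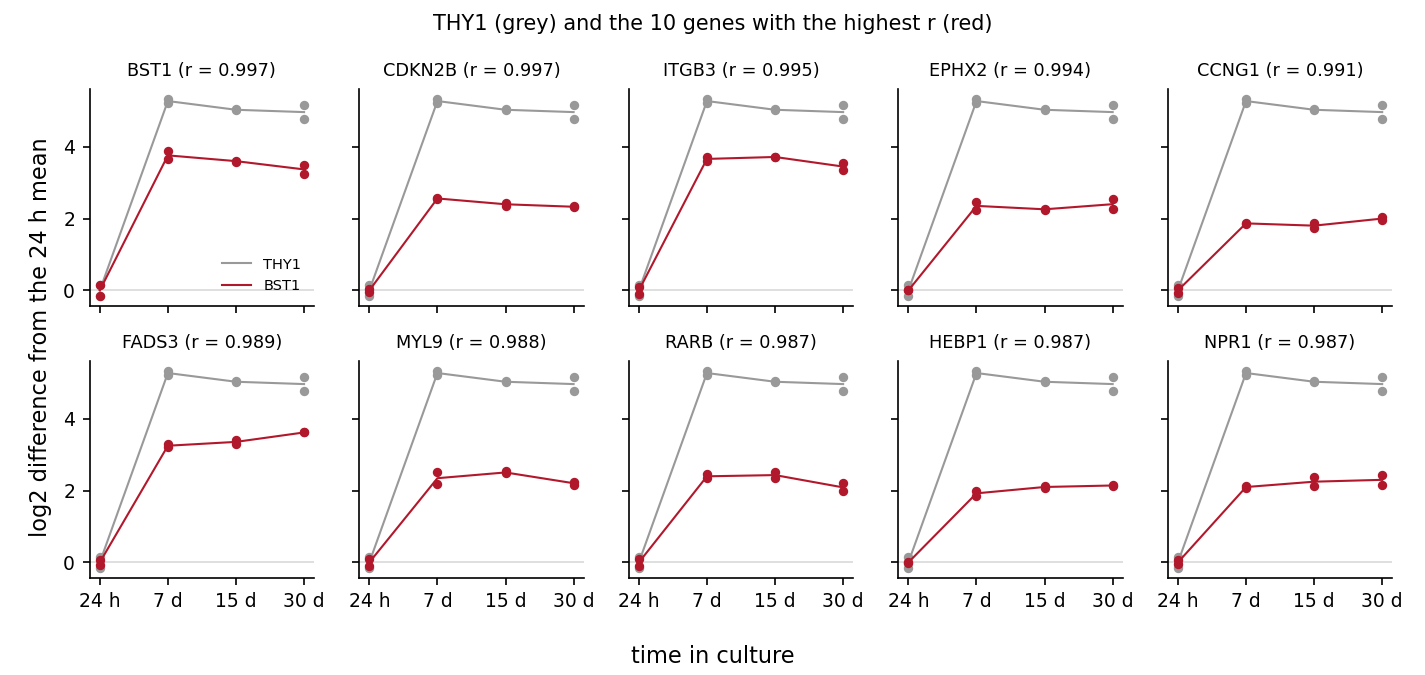
Log2 difference from the mean of the 24h arrays (vertical axis) against time in culture for THY1 (grey, repeated in each panel) and the 10 genes with the highest Pearson r over 8 arrays (red), with a point for each array and a line through the time means. All 10 step up by 7 days, with differences between 1.87 and 3.76.

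At the opposite end, the 5 lowest r belonged to CD274 (-0.996), FRMD4B (-0.996), GCNT3 (-0.996), OVGP1 (-0.994) and SPAG6 (-0.993). CD274 is the checkpoint ligand PD-L1, FRMD4B has a FERM domain, GCNT3 extends mucin glycans, OVGP1 is the oviductal glycoprotein and SPAG6 belongs to the axoneme of cilia. OVGP1, which marks the secretory epithelium, stood at 10.46 and 11.78 at 24h and between 3.31 and 3.88 on the 6 later arrays, a mirror of THY1 in time.

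Other surface proteins used to define mesenchymal stromal cells gained as well, though with different timing. Of 21 measured members of that list, which leaves out THY1, 13 rose and 2 fell between 24h and 7 days, against 18.3% and 15.4% of all 10901 genes (33.7% called in all). Genes were called in limma where the p-value, adjusted by Benjamini-Hochberg across the 10901 genes, was under 0.05. The list's median difference was 0.66, and that of all genes -0.0064. At 15 days 12 rose and 2 fell (all genes 19.3% and 18.1%, together 37.4%; median 0.54 against -0.039), and at 30 days 12 rose and 2 fell (20.2% and 21.1%, together 41.2%; median 0.67 against -0.021). Of all calls, 54.2% were increases at 7 days and 51.5% at 15 days, and median centring changed these shares to 36.0% and 34.3%.

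BST1 rose by 3.76 ± 0.15 at 7 days (SE, limma adjusted p = 3.13e-07), the largest change in the list. VCAM1, an adhesion molecule for leukocytes, rose by 2.66 ± 0.31 (adjusted p = 1.32e-04), from 24h arrays that stood apart at 8.40 and 7.17. ALCAM (CD166), an immunoglobulin superfamily adhesion molecule, rose by 2.27 ± 0.13 and was 2.19 ± 0.13 above 24h at 30 days. MCAM (CD146), a marker of pericytes and stromal progenitors, rose by 2.17 ± 0.16. BST1, ALCAM and MCAM shared with THY1 that their mean was highest at 7 days. For BST1 and MCAM the step from 7 to 15 days was not called (limma adjusted p = 0.595 and 0.767).

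CDH11, the mesenchymal cadherin, and ITGA11, a collagen receptor of fibroblasts, did not level off. CDH11 had RMA values of 4.77 and 5.02 at 24h, 7.38 and 7.32 at 7 days, 9.48 and 9.54 at 15 days and 10.21 and 10.13 at 30 days. It rose at each step, by 2.16 ± 0.12 from 7 to 15 days and by 0.66 ± 0.12 from 15 to 30 days (limma adjusted p = 9.02e-06 and 0.00637). At 30 days its difference from 24h, 5.28, was larger than that of THY1, 4.97, although at 7 days it was 2.45. ITGA11 went from 3.71 and 3.88 at 24h to 4.91 and 4.60 at 7 days and 8.29 and 7.75 at 30 days, with only 22.7% of its rise present at 7 days.

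NT5E (CD73), ENG (CD105) and THY1 (CD90) form the classical trio of mesenchymal stromal markers, and the trio did not move together. NT5E, an ectonucleotidase, rose by 0.74 ± 0.14 at 7 days and by 1.11 ± 0.14 at 15 days, and was 0.099 ± 0.14 above 24h at 30 days (limma adjusted p = 0.00244, 1.67e-04 and 0.646). ENG, a co-receptor for TGF-beta, was not called at any of the 3 times, with differences of 0.54 ± 0.20, 0.053 ± 0.20 and -0.35 ± 0.20. CD44, the hyaluronan receptor, rose by 0.89 ± 0.14 at 7 days and was not called later. ANPEP, the aminopeptidase CD13, fell by 2.80 ± 0.14 at 7 days and by 1.05 ± 0.14 at 30 days. CD9, a tetraspanin, fell by 0.58 ± 0.11 at 7 days. PDGFRB, a growth factor receptor of fibroblasts and pericytes, and CSPG4, a pericyte proteoglycan, were not called at any time, with PDGFRB at 0.13 ± 0.16 and CSPG4 at -0.12 ± 0.13 at 7 days.

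**Figure D4:**
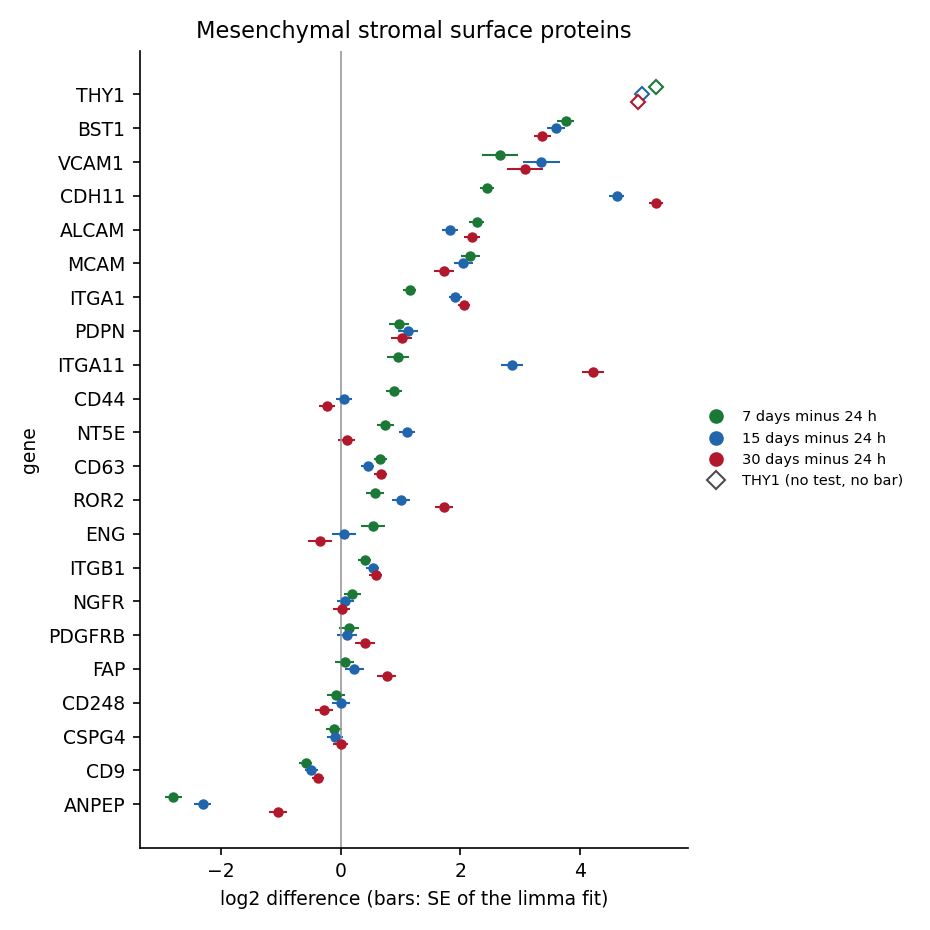
Log2 difference from 24h (horizontal axis) of THY1 (open diamonds, no test) and the 21 measured mesenchymal stromal surface proteins (circles, bars are the SE of the limma fit), ordered by the 7-day difference, with green for 7 days, blue for 15 days and red for 30 days. The means of BST1 keep the order of times seen in THY1, though its steps after 7 days were not called. CDH11 and ITGA11 are farthest right at 30 days and ANPEP lies left of 0 at all 3 times.

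Among proteins that bind THY1, the beta3, beta5, beta1 and alphaV integrin chains were called higher at all 3 times. Of 8 measured partners, 4 rose and 1 fell at 7 days, and 4 rose at 15 and at 30 days with the other 4 not called. That is 62.5%, 50.0% and 50.0% called, against 33.7%, 37.4% and 41.2% of all genes, so the share at 30 days was near the background. The list's medians were 0.21, 0.29 and 0.45. ITGB3 rose by 3.66 ± 0.12 at 7 days (SE, limma adjusted p = 1.54e-07), by 3.72 ± 0.12 at 15 days and by 3.45 ± 0.12 at 30 days. ITGAV, the alphaV chain that pairs with beta3 and beta5, had values of 7.58 and 8.30 at 24h and lay between 10.38 and 10.77 on all 6 later arrays, a rise of 2.54 ± 0.20 at 7 days (adjusted p = 1.45e-05). ITGB5 rose by 1.27 ± 0.11 at 7 days and by 2.04 ± 0.11 at 30 days, and from 7 to 15 days by 0.39 ± 0.11 (adjusted p = 0.0431).

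ITGB1, the beta1 chain shared by many matrix receptors, rose by 0.40 ± 0.11, 0.54 ± 0.11 and 0.59 ± 0.11. Its partner ITGA5, with which it forms the fibronectin receptor, was not called, at -0.20 ± 0.12, 0.053 ± 0.12 and -0.16 ± 0.12. SDC4, the heparan sulfate proteoglycan syndecan-4, fell by 0.40 ± 0.11 at 7 days (limma adjusted p = 0.0148) and was at -0.058 ± 0.11 at 15 days. The calls of ITGB1 and SDC4 at 7 days both ended without the first 7-day array, leaving 3 partners called (adjusted p = 0.0801 and 0.0648; over all alternatives 9.44e-04 to 0.110 and 0.00155 to 0.0758). The ITGB1 call also ended without the first 24h array and under median centring, and that of SDC4 without the second 24h array. ADGRE5 (CD97), an adhesion receptor of leukocytes, and ITGAM, the alphaM chain of myeloid cells, were not called at any time, with ADGRE5 at -0.12 ± 0.13 and ITGAM at 0.028 ± 0.12 at 7 days.

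Of the raft and kinase pathway through which THY1 signals, few transcripts were called at 7 days. Of 9 measured members, 1 rose and 1 fell at 7 days, 3 rose and 3 fell at 15 days, and 2 rose and 3 fell at 30 days, with medians of 0.19, -0.048 and 0.025. The share called was 22.2%, 66.7% and 55.6%, against 33.7%, 37.4% and 41.2% of all genes. FLOT2, the raft scaffold flotillin-2, had values of 6.16 and 6.24 at 24h and 7.82 and 7.73 at 7 days, and rose by 1.57 ± 0.11 (SE, limma adjusted p = 7.65e-06). It stayed 1.33 ± 0.11 above 24h at 30 days, and its r with THY1 was 0.988, although its span was too small for the ranking above. FLOT1, its partner in the raft, was not called, at 0.29 ± 0.11 at 7 days. SRC fell by 0.74 ± 0.16 at 7 days and by 0.98 ± 0.16 at 30 days, and LYN, another kinase of that family, fell by 0.78 ± 0.18 at 15 days and by 0.95 ± 0.18 at 30 days. CAV1, the coat protein of caveolae, rose by 0.80 ± 0.13 at 15 days and lay 0.13 ± 0.13 above 24h at 30 days. CSK, which restrains Src kinases, fell by 0.55 ± 0.13 at 15 days. PTPRA, a phosphatase that activates them, rose by 0.48 ± 0.11 at 15 days and by 0.62 ± 0.11 at 30 days. Without either of the 30-day arrays, 4 members were called at 7 days in place of 2.

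The enzymes that build and attach the GPI anchor were called about as often as genes in general. Of 15 measured members, 4 rose and 2 fell at 7 days, 5 rose and 2 fell at 15 days, and 5 rose and 2 fell at 30 days. The share called was 40.0%, 46.7% and 46.7%, against 33.7%, 37.4% and 41.2% of all genes, and the median differences were 0.16, -0.036 and -0.050. PIGH and PIGP, subunits of the enzyme that starts the anchor, rose by 1.09 ± 0.12 and 1.02 ± 0.12 at 30 days (SE, limma adjusted p = 4.36e-05 and 9.02e-05). PIGS, a subunit of the transamidase that joins anchor to protein, rose by 1.02 ± 0.14 at 15 days, and PGAP1, which trims the anchor afterwards, rose by 0.82 ± 0.18. DPM3, a subunit of the mannose donor synthase, rose by 0.81 ± 0.14 at 7 days. PIGN and PIGO, which add ethanolamine phosphate to the anchor, fell by 1.09 ± 0.16 and 0.65 ± 0.11 at 30 days. Without the first 24h array, 3 members were called at 7 days.

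Other surface proteins held by the same kind of anchor were called at 7 days about as often as genes in general. Of 38 measured members other than THY1, 8 rose and 6 fell at 7 days, 15 rose and 7 fell at 15 days, and 12 rose and 7 fell at 30 days, with medians of 0.040, 0.062 and 0.031. The share called was 36.8%, 57.9% and 50.0%, against 33.7%, 37.4% and 41.2% of all genes. BST1 and MELTF, the transferrin homologue melanotransferrin, rose at 7 days by 3.76 ± 0.15 and 1.64 ± 0.11 (SE, limma adjusted p = 3.13e-07 and 5.18e-06). CDH13, a cadherin without a cytoplasmic tail, fell by 1.20 ± 0.11 at 7 days and was back within 0.079 ± 0.11 of 24h at 15 days. VNN2, a pantetheinase, fell by 1.92 ± 0.29 at 7 days and rose by 1.48 ± 0.29 over 24h at 15 days. CD55, a complement regulator, fell by 1.19 ± 0.16 at 7 days.

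ENPP6, a choline phosphodiesterase with the same kind of anchor, rose late. Its values were 3.54 and 4.09 at 24h, 4.38 and 4.13 at 7 days, 9.14 and 8.66 at 15 days and 8.80 and 8.63 at 30 days. At 7 days it was not called (0.44 ± 0.21, limma adjusted p = 0.144), while THY1 had its full rise by then, and from 7 to 15 days ENPP6 rose by 4.65 ± 0.21 (adjusted p = 4.90e-06). The call at 7 days was gained without the second 24h array, at a difference of 0.71 (adjusted p = 0.0321). RECK, a membrane inhibitor of matrix metalloproteases, rose by 2.43 ± 0.28 at 30 days, and GAS1, a co-receptor for hedgehog ligands, rose by 1.70 ± 0.22 at 15 days.

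The genes beside THY1 on its chromosome did not share its course as a block. The order was taken from the RefSeq gene table of the Sscrofa11.1 assembly, with the 3 nearest measured genes on each side. NECTIN1, the nearest measured gene after it, encodes an adhesion molecule of epithelial junctions, and had values of 6.35 and 6.12 at 24h and between 4.78 and 5.21 on the 6 later arrays. It fell by 1.30 ± 0.16 at 7 days, 1.24 ± 0.16 at 15 days and 1.25 ± 0.16 at 30 days (SE, limma adjusted p = 1.82e-04, 1.84e-04 and 1.34e-04). With its probe sets averaged the falls at 7 and 15 days were 0.71 and 0.81. MFRP, the nearest on the other side and known from the eye, was not called at any time, its values lying between 3.30 and 3.79 on all 8 arrays.

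MCAM is the third measured gene on the side of MFRP, and ends within CBL in that gene table. Its values were 5.33 and 4.90 at 24h, 7.41 and 7.15 at 7 days, 7.13 and 7.20 at 15 days and 6.95 and 6.73 at 30 days. It rose by 2.17 ± 0.16, 2.05 ± 0.16 and 1.73 ± 0.16 (SE, limma adjusted p = 9.68e-06, 8.67e-06 and 1.85e-05), and its r with THY1, 0.982 over 8 arrays, ranked at place 17 of the 652 genes. RNF26, a ubiquitin ligase of the endoplasmic reticulum that lies between MCAM and MFRP, was 0.34 ± 0.12 and 0.29 ± 0.12 above 24h at 7 and 30 days without being called, except at 7 days with the replicate block (adjusted p = 0.0498). Its call at 15 days (0.38 ± 0.12, adjusted p = 0.0319) ended when either 24h array or the first 15-day array was left out, and under median centring, quantile normalization or a fit of only 24h and 15 days (adjusted p 0.0254 to 0.279 over all alternatives).

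TRIM29, an epithelial protein of the TRIM family and second on the side of NECTIN1, fell by 1.30 ± 0.15 at 30 days (SE, limma adjusted p = 7.05e-05). Its values there were 5.71 and 5.29, below all arrays of the earlier times, which lay between 6.71 and 7.42. At 7 and 15 days it was called higher by 0.47 ± 0.15 and 0.58 ± 0.15. The 7-day call ended with any array of 24h, 7 days or 15 days left out and under median centring or quantile normalization, and the 15-day call without the first array of 24h or of 15 days (adjusted p 0.0166 to 0.171 and 0.00491 to 0.0781 over all alternatives). ARHGEF12, the third measured gene on that side, rose by 0.56 ± 0.11 at 30 days. It was also called at 15 days (0.33 ± 0.11, adjusted p = 0.0417), a call that ended with any array of 24h, 15 days or 30 days left out and under median centring (0.0223 to 0.244 over all alternatives).

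**Figure D5:**
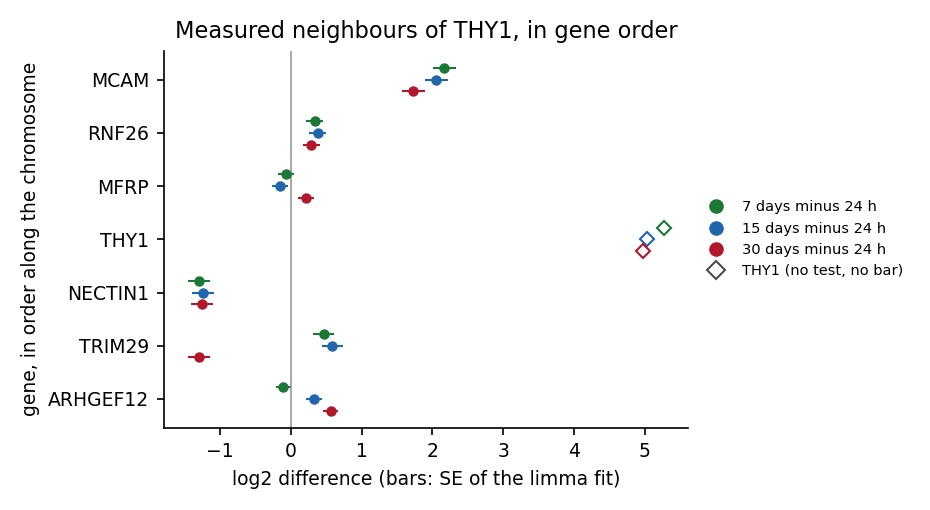
Log2 difference from 24h (horizontal axis) of THY1 (open diamonds, no test) and the 3 nearest measured genes on each side (circles, bars are the SE of the limma fit), listed in order along the chromosome, with green for 7 days, blue for 15 days and red for 30 days. MCAM lies to the right at all 3 times and NECTIN1 to the left, and MFRP stays near 0.

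Markers of the cell types that can carry THY1 were read beside it, as the sum of linear values over each list's measured members on an array. The 14 fibroblast markers summed to 586 to 617 at 24h and to 3320 to 3879 on the 7-day arrays, then to 9217 to 9349 at 15 days and, by 30 days, to 10553 to 11653, with 9, 8 and 10 members called higher at the later times, or 64.3%, 57.1% and 71.4%, against 18.3%, 19.3% and 20.2% of all genes. That sum went on increasing after THY1 had levelled. The 8 pericyte and smooth muscle markers lay at 1746 to 2022 at 24h, at 2878 to 3231 at 7 days and, by 30 days, at 4552 to 4847, but only 2, 3 and 3 members were called, all higher, or 25.0%, 37.5% and 37.5%, and their median difference at 7 days was 0.060. ACTA2, the smooth muscle actin, was higher by 2.39 ± 0.14 at 7 days and TAGLN, an actin-binding protein of smooth muscle, by 0.63 ± 0.12. Most of the pericyte and smooth muscle sum came from TAGLN and ACTA2. The time means of the pericyte genes RGS5, ABCC9 and KCNJ8 spanned 0.17, 0.083 and 0.26 log2 units. The 8 epithelial markers went the other way, with 13971 to 16699 at 24h, 9145 to 9561 on the 7-day arrays, 9222 to 9887 on the 15-day arrays and 5230 to 6429 by 30 days. Of them 5, 5 and 6 were called lower (15.4%, 18.1% and 21.1% of all genes) and 2 were called higher at 15 days. KRT8 and KRT19, keratins of simple epithelia, lay between 10.89 and 11.94 on all 8 arrays and were the members higher at 15 days, by 0.79 ± 0.14 and 0.48 ± 0.15. The KRT19 call ended with any array of 24h or 15 days left out and under median centring (limma adjusted p = 0.0291, and 0.0045 to 0.129 over all alternatives). CLDN4, a claudin of tight junctions, fell by 3.08 ± 0.10 by 30 days. The part of fibroblast and smooth muscle markers in the rise of THY1 was not tested.

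The 10 T cell markers summed to between 125 and 134 on all 8 arrays, and CD3E, a chain of the T cell receptor complex, lay between 3.95 and 4.33. The 6 endothelial markers summed to 148 to 210 at 24h, 165 to 180 at 7 days and 129 to 141 at 30 days. Among them 2, 1 and 1 were called lower at 7, 15 and 30 days, and 0 higher. That is 33.3%, 16.7% and 16.7%, against 15.4%, 18.1% and 21.1% of all genes called lower, and 1 member was at least 2-fold lower each time. The 8 myeloid and B cell markers summed to between 1037 and 1338. Most of it came from CD79A, which was between 9.87 and 10.23 on every array. Of these markers 0, 2 and 3 were called lower at 7, 15 and 30 days, and 0 higher. That is 0%, 25.0% and 37.5% called lower, against 15.4%, 18.1% and 21.1% of all genes. TYROBP differed from 24h by -0.69 ± 0.22 at 15 days and -0.88 ± 0.22 at 30 days, and CSF1R by -0.82 ± 0.22 and -0.73 ± 0.22. With 1 array left out in turn, TYROBP ranged from -1.11 to -0.27 at 15 days and from -1.30 to -0.46 at 30 days. CSF1R ranged from -1.18 to -0.46 and from -1.09 to -0.37. The smallest falls in these ranges came without the second 24h array. The 24h arrays of both genes were far apart, with an SD of 0.59 for TYROBP and 0.51 for CSF1R. The TYROBP call at 15 days ended in a fit of only 24h and 15 days (limma adjusted p = 0.0824). The calls of both genes at 15 and 30 days each ended in some fit with 1 array left out, so they are not firm. The 7 neuronal and Schwann cell markers summed to 176 to 182 at 24h and to 376 to 427 at 7 days. UCHL1, a ubiquitin hydrolase, rose by 1.60 ± 0.14 at 7 days and was the 1 member called, or 14.3% against 33.7% of all genes. SOX10, a transcription factor of Schwann cells, lay between 4.46 and 5.08. The 5 mesothelial markers summed to 560 to 617 at 24h and 461 to 490 at 7 days. Most of the sum came from WT1, a transcription factor of mesothelium, which lay between 8.46 and 9.01 over the 8 arrays. At 7 and at 30 days 1 member rose and 2 fell (60% called, against 33.7% and 41.2% of all genes), and 0 were called at 15 days. BNC1 rose by 1.74 ± 0.14 and 1.08 ± 0.14, PKHD1L1 fell by 1.11 ± 0.17 and 1.31 ± 0.17, and WT1 fell by 0.33 ± 0.11 and 0.45 ± 0.11. The WT1 call at 7 days (limma adjusted p = 0.0467) ended in a fit of only 24h and 7 days (0.123). It also ended with its probe sets averaged (0.0709) and with the replicate block (0.0535), so it is not firm. The WT1 difference ranged from -0.41 to -0.26 at 7 days and from -0.53 to -0.37 at 30 days with 1 array left out in turn.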

How the data were processed

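RNA was amplified and biotin-labelled for 1-colour Affymetrix arrays, per the labels' protocols. The authors deposited log2 values per probe set, made with RMA per the submitters' processing notes; that they are log2 follows from their range. Which version of RMA and which filters were used was not given in the sources used here. Because RMA equalizes the arrays, a change common to most genes cannot be seen. Replicate arrays correlated at 0.990 to 0.995 over probe sets, and the small number of arrays limits the precision.

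Of 27558 probe sets, 11968 had 1 symbol, 379 had several or a conflicting identifier and were not used, while 15211 had no name here. Identifiers of 11184 matched RefSeq genes of Sscrofa11.1. The probe set with the highest mean stood for each of 966 genes with several, leaving 10901 genes. Limma 3.58.1 in R 4.3.3 (lmFit, eBayes) fitted all 8 arrays with 1 mean per time and 4 residual degrees of freedom. The function was tested on simulated data. Genes other than THY1 were named by rule: the 10 highest and 5 lowest r with THY1, the 5 nearest profiles, every binding partner, up to 4 called members with the largest difference of each list and comparison with 24h, 3 neighbours on each side and the 3 brightest members of each marker list. ENG, CD44, ALCAM, CD9, PDGFRB, CSPG4, NT5E, FLOT1, CSK, CD55, FBN1, LUM, COL3A1, COL6A3, RGS5, ABCC9, KCNJ8 and STEAP2 were chosen after their values were seen. THY1, the lists and the rule were chosen with earlier results of these data known. Alternatives were median centring, quantile normalization, a filter on the dimmest 25% of genes, other uses of probe sets, trended variance, a fit of only the 2 groups at hand, a block for the replicate number, leaving out each array, a 2-fold minimum and other measures of likeness.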

Additional observations from a re-analysis of the deposited data

How the results depend on the processing

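The difference of THY1 from 24h was 5.11 at 7 days and 4.87 at 15 days after median centring, which itself moved the median of all genes by -0.17 and -0.21. With 1 array left out in turn it ranged from 5.13 to 5.43 for the 7-day arrays, from 4.88 to 5.18 for the 15-day arrays and from 4.77 to 5.16 for the 30-day arrays, from -0.30 to -0.18 between 7 and 15 days and from -0.26 to 0.13 between 15 and 30 days. Leaving out arrays gave, against 24h, 3005 to 3556 genes called for the 7-day arrays, 2913 to 4165 for the 15-day and 3778 to 4575 for the 30-day arrays, 633 to 1583 from 7 to 15 days and 506 to 1211 from 15 to 30 days. It gave 13 to 16, 13 to 14 and 13 to 15 stromal surface proteins, 3 to 5, 4 and 4 to 5 binding partners, 2 to 4, 5 to 7 and 4 to 5 raft and kinase genes, 3 to 6, 5 to 7 and 5 to 7 anchor enzymes, 11 to 15, 16 to 22 and 14 to 21 anchored proteins, and 5 to 9 of the 10 most alike genes. Asking for a 2-fold change as well left, by construction, 1078, 1396 and 1822 genes against 24h, 395 from 7 to 15 days and 356 from 15 to 30 days. The same minimum left 7 stromal surface proteins at 7 days, 3 binding partners at 7 days, 1 raft and kinase gene at each time, 0, 1 and 4 anchor enzymes, and 5, 11 and 8 anchored proteins. Fitting only 24h and 7 days called 3 binding partners, and quantile normalization called 4 raft and kinase genes at 7 days, where the cause was not tested. Of the 10 most alike genes, 3 were also among the 10 nearest by root mean square difference, and 4 remained when genes with a span of at least 1 log2 unit were ranked. Of 3687 values of named genes under alternatives, 3582 kept direction and side of the threshold, 75 lost and 30 gained a call and 0 reversed. Between times, the deviations of replicates of the same number had correlations from 0.0080 to 0.27 over genes. Whether these replicates were paired was not tested. The replicate block gave 3804, 4196 and 4613 genes called against 24h, where the main fit gave 3669, 4080 and 4494. No detection calls were used, so low values such as THY1 at 24h limit how large a fold can be read.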
